A study of Mus musculus with 6 samples.

Results

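Genes for protein folding and secretion at the endoplasmic reticulum (ER) were examined in mouse CD4+ T cells before and after activation. The set consists of 45 genes chosen by name, in 7 roles, which are the sensors of unfolded protein, folding, ER-associated degradation, the signal recognition particle, the translocon, signal peptidase and the oligosaccharyltransferase. Of these, 43 had a row in the deposited expression table, 42 were expressed highly enough to be tested, *Derl3* lay below the filter, and *Ero1l* and *Ero1lb* were not analysed here. The activated group (3 libraries) holds CD4+ T cells of wild-type C57BL/6 mice stimulated in culture with anti-CD3 and anti-CD28 until day 2. The group that the study calls naive (3 libraries) holds CD4+ T cells of the same wild-type strain at day 0, labelled as primary culture cells, from lymph nodes and spleen. No allele was altered in either group. The study's methods give an age of 7 to 10 weeks and both sexes for experiments of this kind, and describe the naive cells as sorted by flow cytometry and the replicates as biologically independent. Cells cultured to day 2 without stimulation were not among the libraries, and the effects of stimulation and of days spent in culture cannot be told apart. In bulk RNA, fewer cells of a type and less RNA per cell cannot be told apart either.

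The ER is where secreted and membrane proteins are made. A signal sequence emerging from the ribosome is bound by the signal recognition particle, the chain is threaded through the Sec61 channel, its signal is cut off by signal peptidase, and sugar chains are attached by the oligosaccharyltransferase. Lectin chaperones, Hsp70-type chaperones and protein disulfide isomerases then fold the chain, and chains that fail to fold are pulled back to the cytosol and degraded. When unfolded protein builds up, the sensors Ire1 (encoded by *Ern1*), Perk and Atf6 switch on the unfolded protein response, in which *Xbp1* mRNA is spliced by Ire1 to encode an active transcription factor. This response is best known in lymphocytes for its part in the making of antibody-secreting plasma cells, and T cells also enlarge their ER when they begin to divide and secrete cytokines.

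Expression values were analysed on the log2 scale on which they were deposited, headed FPKM, so that levels of different genes are per length of transcript. The table holds 14379 genes, of which 10173 were tested, and no read counts, so that the depth of each library is unknown. In every library many genes share a base value of 1.99 on the log2 scale. The comparison was made with limma and the Benjamini-Hochberg adjustment over all genes tested. A gene was called when its adjusted p was under 0.05 and its change at least 1.5-fold. A log2 fold change (activated over naive) understates the change of genes near the base value. Activated replicate 1 differed from its group mates by an SD of 0.283 and 0.288 on the log2 scale over the genes tested, where activated replicates 2 and 3 differed by 0.108. Naive replicate 3 differed from its group mates by 0.354 and 0.377, where naive replicates 1 and 2 differed by 0.159. Activated replicates 2 and 3 shared identical values in 670 genes and naive replicates 1 and 2 in 352 genes, none of them among the ER genes. The T cell markers were present in every library, with a summed level of 2523 to 3266 linear units above the base value in activated libraries and 7264 to 7651 units in naive libraries, and 8 of 10 of them fell. Of 8 B cell and plasma cell markers tested, 1 rose and 1 fell, and their summed level was 16.5 to 24.0 units in activated libraries and 16.0 to 52.4 units in naive libraries. Among them the plasma cell gene *Jchain* was at log2 values of 1.85, 2.05 and 1.99 in activated libraries and 3.53, 4.11 and 3.91 in naive libraries. *Mzb1*, an ER protein of antibody-secreting cells, was at 2.04, 2.82 and 2.85 in activated libraries and 2.31, 3.09 and 2.80 in naive libraries. *Sdc1*, the plasma cell surface proteoglycan and the gene of this list that rose, was at 3.40, 2.95 and 2.95 in activated libraries and 1.70, 1.78 and 1.80 in naive libraries. Myeloid markers summed to 68.2 to 109 units in activated libraries and 144 to 263 units in naive libraries, and 6 of 8 tested fell. Markers of CD8+ T cells and natural killer cells summed to 190 to 271 units in activated libraries and 136 to 184 units in naive libraries, and of 6 tested 1 rose (*Nkg7*, by 1.99) and 3 fell. Of these, *Cd8b1* fell by 2.34 and *Klrd1* fell by 2.96. The part of these cells in the results below was not tested.

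Of the 42 ER genes tested, 17 rose, 3 fell and 22 were not called. Over all genes tested, 31.2% were called higher and 21.6% were called lower, 52.8% in either direction. Among the ER genes the share that rose was 40.5% and the share that fell was 7.14%. The median log2 fold change was 0.49 over the ER genes and 0.13 over all genes tested. The number that fell was 6 without activated replicate 1, 1 without activated replicate 2 or without activated replicate 3, 9 under quantile normalization and 7 under upper-quartile scaling, with 15, 20, 21, 13 and 15 that rose. Under quantile normalization 21.4% of the ER genes and 25.5% of all genes tested were called lower, and under upper-quartile scaling 16.7% of the ER genes and 26.8% of all genes. The shares called higher were 31.0% of the ER genes and 25.7% of all genes under quantile normalization, and 35.7% of the ER genes and 25.3% of all genes under upper-quartile scaling. When activated replicate 1, 2 or 3 was left out, the shares of all genes called higher were 28.8%, 32.1% and 32.4%. The shares of all genes called lower in those fits were 23.3%, 20.9% and 20.6%. By role, folding had 7 higher of 10, the translocon had 5 higher and 2 lower of 9, and each of the other roles had 1 higher gene. At an adjusted p under 0.05 with no fold threshold, 24 ER genes were higher and 3 lower, against 41.2% and 31.5% of all genes tested. The groups did not overlap in 32 of the 42 genes, with activated cells higher in 26 (against 43.9% of all genes tested) and lower in 6 (against 32.9%). Together the 43 genes made up 0.702% ± 0.055 (SD, n = 3) of the summed linear expression above the base value in activated libraries and 0.495% ± 0.020 (SD, n = 3) in naive libraries, and the lowest activated library (0.667%) was above the highest naive library (0.518%).

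**Figure D1:**
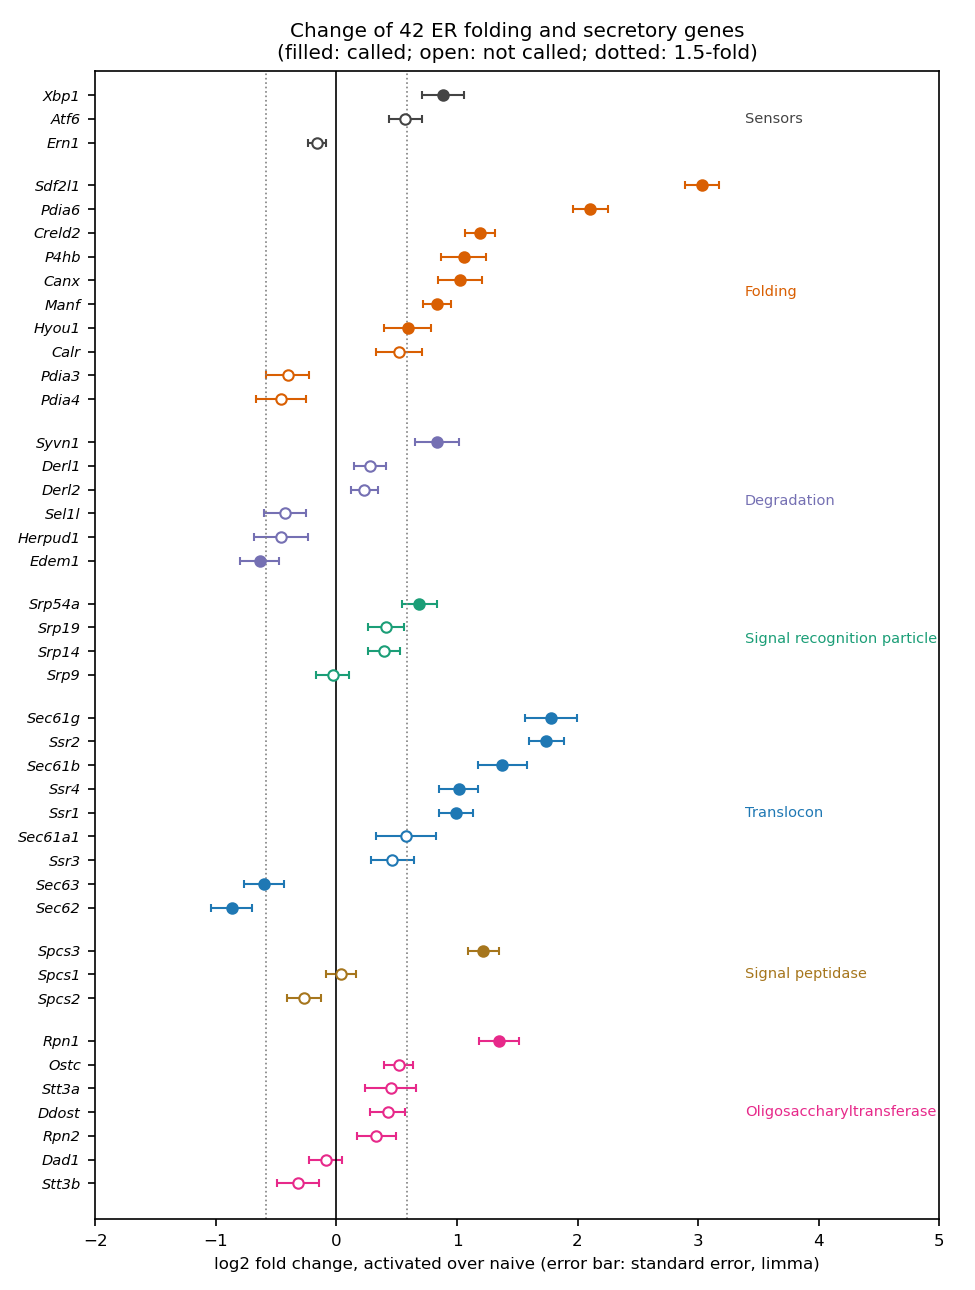
Log2 fold change (activated over naive, horizontal axis) of each of the 42 ER genes tested, by role, with its standard error from limma (3 libraries per group). Filled points were called (adjusted p under 0.05 and at least 1.5-fold, dotted lines), open points were not. *Sdf2l1* lies farthest to the right at 3.03 and *Sec62* farthest to the left at -0.87.

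Of the genes in the sensor role, *Xbp1*, which is not itself a sensor, rose, and the sensor genes *Atf6* and *Ern1* were not called. *Xbp1*, the transcription factor gene whose mRNA is spliced by Ire1, was at log2 values of 6.72, 6.30 and 6.12 in activated replicates 1 to 3 and at 5.31, 5.55 and 5.64 in naive replicates 1 to 3. The groups did not overlap, and *Xbp1* rose by 0.88 (limma, standard error 0.18, adjusted p = 0.0014), a change of 1.84-fold on the deposited scale. Its call was lost under quantile normalization (0.57). A value per gene does not separate spliced from unspliced *Xbp1* mRNA. *Atf6* encodes a membrane-bound factor that is cut free in the Golgi under stress. It was at 3.66, 3.30 and 3.23 in activated libraries and 2.70, 2.78 and 3.00 in naive libraries, with no overlap. Its log2 fold change of 0.57 was just under 1.5-fold (limma, standard error 0.14, adjusted p = 0.0039), and it was called without activated replicate 2 (0.62), without activated replicate 3 (0.66) or without naive replicate 3 (0.66). With pseudocounts of 0.1, 0.5 and 1 on linear values above the base its log2 fold change was 1.06, 0.97 and 0.88, and it was called. *Ern1*, which encodes Ire1, was low in every library, at 2.61, 2.49 and 2.41 in activated libraries and 2.61, 2.70 and 2.68 in naive libraries, and its log2 fold change was -0.16 (adjusted p = 0.087 from limma).

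Of the 10 folding genes tested, 7 rose and none fell, with the largest changes in *Sdf2l1*, *Pdia6* and *Creld2*. *Sdf2l1*, an ER protein that works with the Dnaj co-chaperones of the Hsp70 cycle, lies at 17130138 to 17132383 on the minus strand of chromosome 16 (GRCm38/mm10, as are all positions below). It was at 7.40, 7.30 and 7.45 in activated libraries and at 4.37, 4.54 and 4.14 in naive libraries, 8.19-fold higher in activated cells on the deposited scale (log2 fold change 3.03 with a standard error of 0.14 in limma, adjusted p = 2.2e-07). In linear units above the base value its mean was 163 in activated libraries and 16.5 in naive libraries. Its groups were the farthest apart of all the ER genes, and it ranked 15 of the 43 genes by level in activated cells and 37 in naive cells. *Pdia6*, a protein disulfide isomerase on the plus strand of chromosome 12 from 17266545 to 17284770, was at 8.29, 8.01 and 7.91 in activated libraries and at 6.08, 5.96 and 5.85 in naive libraries. It rose by 2.11 (limma, standard error 0.14, adjusted p = 1.7e-06), and its ranks by level were 8 in activated cells and 22 in naive cells. *Creld2*, an ER-resident protein with EGF-like repeats that is induced by ER stress, lies on the plus strand of chromosome 15 from 88819646 to 88826683. It was at 6.48, 6.23 and 6.28 in activated libraries and at 5.11, 5.10 and 5.21 in naive libraries, and rose by 1.19 (standard error 0.13, adjusted p = 2.5e-05 from limma). All 3 genes were separated by more than the spread within either group.

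The founding protein disulfide isomerase gene *P4hb* rose by 1.05 on the log2 scale, the membrane-bound lectin chaperone gene *Canx* by 1.02 and *Manf*, which encodes a small ER protein that is also secreted, by 0.83. Under quantile normalization *Canx* was still called (0.59), and *P4hb* (0.58) and *Manf* (0.34) were not. *Manf* had the smallest spread of these, at 7.99 ± 0.02 in activated cells and 7.16 ± 0.06 in naive cells (SD, n = 3 each). Exons of *Manf* share 166 and 146 bases with genes on the other strand, and if strand was ignored in counting, reads there could belong to either gene. Among called genes the same holds for 50 bases of *Pdia6*, 91 of *Syvn1*, 75 of *Spcs3*, 239 of *Ssr2*, 509 of *Sec62*, 173 of *Sec63* and 131 of *Rpn1*. Among genes not called it holds for 784 bases of *Srp9*, 549 of *Sec61a1*, 252 of *Spcs1*, 242 of *Rpn2*, 231 of *Derl2* and 18 of *Pdia3*. *Hyou1*, a large Hsp70-like chaperone that exchanges the nucleotide of BiP, was called at a log2 fold change of 0.59 (standard error 0.20), but not without activated replicate 1 (0.37), without naive replicate 1 (0.54) or without naive replicate 2 (0.55), nor under any of the 3 other scalings, which gave 0.39 to 0.48. *Calr*, the soluble lectin chaperone and the most highly expressed of the 43 genes in both groups, was at 9.35 ± 0.33 in activated cells and 8.83 ± 0.21 in naive cells (SD, n = 3 each). Its log2 fold change of 0.52 had an adjusted p of 0.034 in limma and was below 1.5-fold, and it was called without activated replicate 2 (0.64), without activated replicate 3 (0.59) or without naive replicate 3 (0.64), and was at 0.33 without activated replicate 1. The disulfide isomerase genes *Pdia3*, the partner of the lectin chaperones, and *Pdia4* had log2 fold changes of -0.40 (adjusted p = 0.066 from limma) and -0.46 (adjusted p = 0.070). Both were called lower under quantile normalization (-0.88 and -0.85) and upper-quartile scaling (-0.63 and -0.68), and *Pdia4* also without activated replicate 1 (-0.61), while without naive replicate 3 they were at -0.22 and -0.25. *Pdia3* ranked 5 of the 43 genes by level in activated cells and 2 in naive cells. The 4 disulfide isomerase genes of the set thus lay between -0.46 and 2.11, with 2 called higher and 2 not called.

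**Figure D2:**
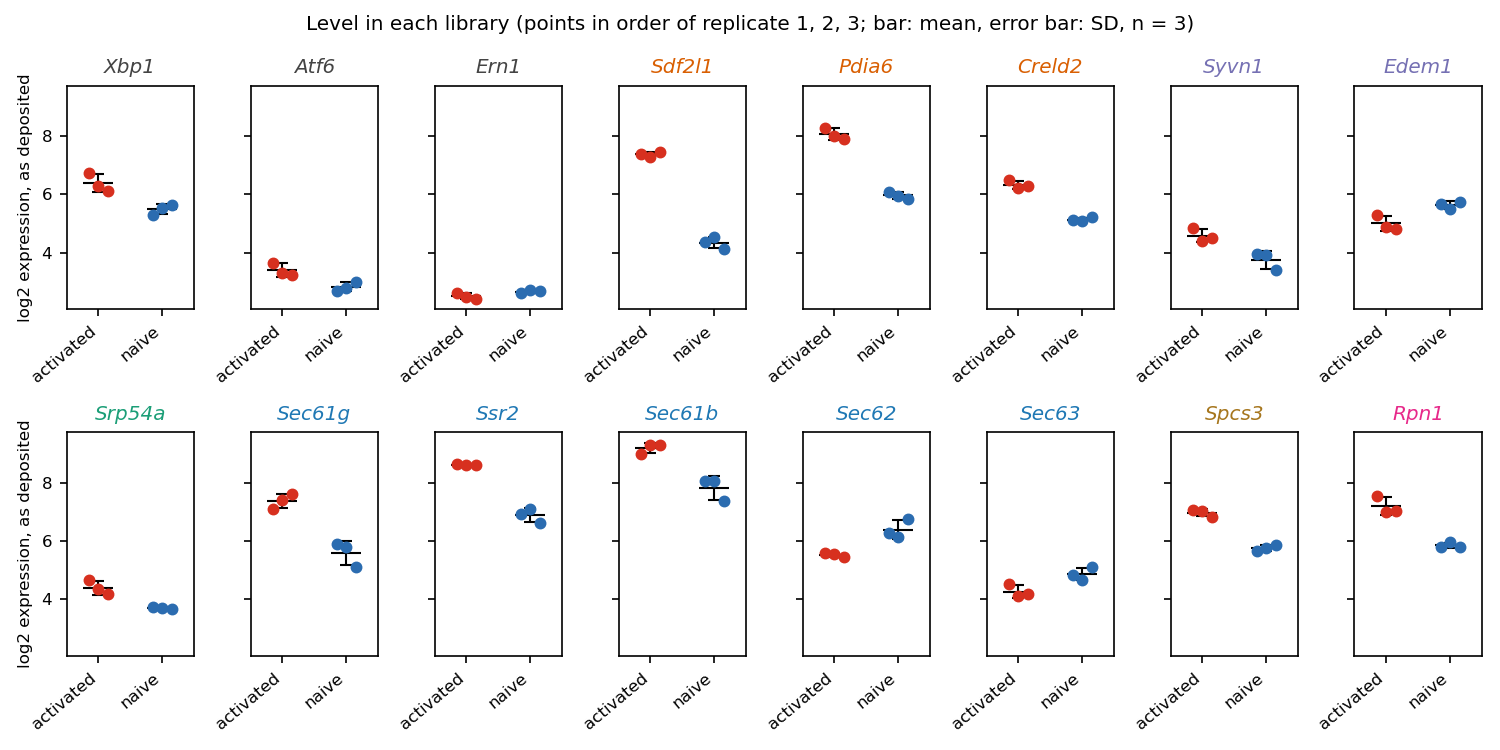
Log2 expression as deposited (vertical axis) in each activated library (red, left) and naive library (blue, right) for 16 of the genes given per library, with the mean and SD of 3 libraries. In *Sdf2l1* all activated libraries lie between 7.30 and 7.45 and all naive libraries between 4.14 and 4.54.

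The letters of the ER stress response element were found before the start of several of these genes. This element pairs a CCAAT box, bound by NF-Y, with a CCACG box, bound by Atf6 or Xbp1, at a fixed distance. RefSeq promoter windows (GRCm38.p6), from 250 bases before to 50 after each start, were matched by symbol for 34 of the 45 genes and searched on both strands. The letters CCAAT and CCACG with 9 bases of any kind between them were in the window of 6 of these genes, which are *Calr*, *Canx*, *Pdia6*, *Creld2*, *Syvn1* and *Derl3*, and in 0.137% of the 27025 genes with a window. The second form of the element, ATTGG and CCACG with 1 base between them, was in the window of *Herpud1* alone among the 34 and in 0.0444% of all genes. The letters TGACGTGG, an element bound by Xbp1, were in none of the 34 and in 0.714% of all genes, and TGATGNAA, part of the element bound by Atf4 with its partners, was in the window of *Herpud1* and in 4.51% of all genes. ATTGG is the reverse complement of CCAAT, so the first 2 elements share their boxes at different spacings, and no matches of the 4 elements overlapped in the 34 genes. Of the 5 genes with the first element that were tested, 4 rose and none fell, with a median log2 fold change of 1.02. Of the 28 tested genes whose window lacked it, 9 rose and 3 fell, with a median of 0.28. Those that rose include *Sdf2l1*, which had the largest change (3.03), *Sec61g*, *Sec61b*, *Rpn1* and *Xbp1*, whose windows held none of the 4 elements. Of all genes tested, 31.2% were called higher and 21.6% lower, with a median of 0.13. A match is a description of the letters and was not measured as a bound site.

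The stretches around the element are shown for the genes with the largest changes that carry it, *Pdia6*, *Creld2*, *Canx* and *Syvn1*, which rose, and for *Calr* and *Herpud1*, which were not called. Each is written 5′ to 3′ on the strand of the gene, with the element in capitals. They lie at chr12:17266451-17266549 (plus strand) for *Pdia6*, chr15:88819480-88819578 (plus) for *Creld2*, chr11:50325760-50325858 (minus) for *Canx*, chr19:6046492-6046575 (plus) for *Syvn1*, chr8:84847035-84847133 (minus) for *Calr* and chr8:94386337-94386427 (plus) for *Herpud1*. The element starts 98 bases before the RefSeq start of *Pdia6*, 145 before that of *Canx* and 44 before that of *Syvn1*, each read on the gene's own strand, and 126 before *Creld2* and 162 before *Calr*, each on the opposite strand. In *Herpud1* the second form starts 52 bases before the start.
Pdia6: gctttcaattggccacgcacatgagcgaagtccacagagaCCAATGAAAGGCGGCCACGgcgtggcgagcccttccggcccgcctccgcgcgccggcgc
Creld2: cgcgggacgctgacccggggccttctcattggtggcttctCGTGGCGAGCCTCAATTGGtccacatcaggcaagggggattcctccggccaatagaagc
Canx: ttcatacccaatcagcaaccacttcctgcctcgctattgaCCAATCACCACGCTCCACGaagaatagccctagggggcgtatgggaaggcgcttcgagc
Syvn1: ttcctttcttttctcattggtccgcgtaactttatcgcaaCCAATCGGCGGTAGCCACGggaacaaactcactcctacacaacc
Calr: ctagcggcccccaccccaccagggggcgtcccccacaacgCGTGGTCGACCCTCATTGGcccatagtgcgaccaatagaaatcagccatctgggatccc
Herpud1: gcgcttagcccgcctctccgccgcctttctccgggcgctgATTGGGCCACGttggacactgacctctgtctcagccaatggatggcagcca

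Of 6 degradation genes tested, 1 rose, 1 fell and 4 were not called, with a median log2 fold change of -0.10. That is 16.7% in each direction, against 31.2% higher and 21.6% lower among all genes tested. The 7 genes in the table made up 0.0214% ± 0.0047 of the summed expression above the base value in activated libraries and 0.0243% ± 0.00080 in naive libraries (SD, n = 3 each), which overlapped. *Syvn1* encodes Hrd1, the ubiquitin ligase at the core of the degradation complex. It was at 4.83, 4.41 and 4.52 in activated libraries and at 3.94, 3.92 and 3.40 in naive libraries, and rose by 0.83 (standard error 0.18, adjusted p = 0.0024 from limma). Naive replicate 3 was the lowest, and with both naive replicate 3 and activated replicate 1 left out the log2 fold change of *Syvn1* was 0.53 and not called. *Edem1* encodes a mannosidase-like protein that marks misfolded glycoproteins for disposal. It was at 5.31, 4.89 and 4.81 in activated libraries and at 5.68, 5.50 and 5.74 in naive libraries, and fell by 0.64 (limma, standard error 0.16, adjusted p = 0.0052). Its call was lost without activated replicate 2 (-0.58) or without activated replicate 3 (-0.54). *Sel1l*, the adaptor of Hrd1, had a log2 fold change of -0.43 (adjusted p = 0.052 from limma) and *Herpud1*, a scaffold of the complex, had -0.46 (adjusted p = 0.091). Both were called lower without activated replicate 1, at -0.59 and -0.72, and in both the groups overlapped. Without activated replicate 2, *Herpud1* was at -0.28. The derlin genes *Derl1* and *Derl2*, which encode rhomboid-like membrane proteins of the exit channel, had log2 fold changes of 0.28 and 0.23 and were not called. *Derl3*, the third derlin, was close to the base value, at 2.19, 2.54 and 2.58 in activated libraries and 2.02, 2.19 and 1.87 in naive libraries.

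Of the 4 genes of the signal recognition particle, *Srp54a* was called. *Srp54a* encodes the GTPase that binds the signal sequence. It was at 4.66, 4.34 and 4.16 in activated libraries and at 3.74, 3.70 and 3.67 in naive libraries, and rose by 0.69 (standard error 0.14, adjusted p = 0.0021 from limma), but not without activated replicate 1 (0.55) or under upper-quartile scaling (0.51). Mice carry the near-identical copies *Srp54b* and *Srp54c*, between which counting can split reads, so that the value of 1 copy is uncertain. *Srp54b* was at 4.29, 4.47 and 4.43 in activated libraries and 4.45, 4.30 and 4.29 in naive libraries, and *Srp54c* had a log2 fold change of 0.42 (adjusted p = 0.056 from limma). *Srp14*, part of the domain that pauses elongation, had a log2 fold change of 0.39 (adjusted p = 0.024) and *Srp19*, needed to assemble the particle, had 0.41 (adjusted p = 0.029), both below 1.5-fold. *Srp9*, the partner of Srp14, was at 6.92 ± 0.14 in activated cells and 6.95 ± 0.17 in naive cells (SD, n = 3 each), which overlapped.

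Of the 9 translocon genes, 5 rose and 2 fell. That is 55.6% and 22.2%, against 31.2% and 21.6% of all genes tested. The small subunits of the Sec61 channel and most of the translocon-associated TRAP complex rose, while *Sec62* and *Sec63* fell. The 9 genes together made up 0.183% ± 0.00089 of the summed expression above the base value in activated libraries and 0.0895% ± 0.0074 in naive libraries (SD, n = 3 each). *Sec61g*, on the minus strand of chromosome 11 from 16500530 to 16508484, was at 7.10, 7.41 and 7.60 in activated libraries and at 5.89, 5.78 and 5.11 in naive libraries, and rose by 1.78 (standard error 0.22, adjusted p = 6.8e-05 from limma). *Sec61b*, on the plus strand of chromosome 4 from 47474658 to 47483242, was at 8.99, 9.29 and 9.30 in activated libraries and at 8.05, 8.06 and 7.36 in naive libraries, and rose by 1.37 (standard error 0.20, adjusted p = 2.3e-04). In both genes naive replicate 3 was the lowest library, and without it both were still called. Under quantile normalization *Sec61b* rose by 0.91. *Sec61a1*, which encodes the pore itself, was at 7.05, 6.10 and 6.06 in activated libraries and 5.66, 5.84 and 5.98 in naive libraries. Activated replicate 1 stood 0.97 above the others, and the log2 fold change of 0.57 had an adjusted p of 0.062 in limma. Without activated replicate 1 the log2 fold change was 0.25, and it was called without activated replicate 2 (0.72) or without activated replicate 3 (0.75).

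Among the 4 TRAP genes, which help chains with weak signals into the channel, *Ssr2* was at 8.63, 8.62 and 8.62 in activated libraries and at 6.92, 7.09 and 6.63 in naive libraries, and rose by 1.74 (standard error 0.15, adjusted p = 6.1e-06 from limma). Its activated libraries differed by less than those of any other of the 43 genes, with an SD of 0.0068. *Ssr4* rose by 1.01 (0.59 under quantile normalization, still called) and *Ssr1* by 0.99. *Ssr3* had a log2 fold change of 0.46 (adjusted p = 0.037 from limma), below 1.5-fold, and its groups overlapped, and it was called without naive replicate 3 (0.60).

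*Sec62* and *Sec63* encode membrane proteins that help short or slowly targeted chains into the channel, Sec63 by recruiting BiP through its J domain. *Sec62*, on the plus strand of chromosome 3 from 30792875 to 30821263, was at 5.58, 5.53 and 5.45 in activated libraries and at 6.27, 6.14 and 6.76 in naive libraries, and fell by 0.87 (limma, standard error 0.17, adjusted p = 0.0013). *Sec63*, on the plus strand of chromosome 10 from 42761496 to 42832514, was at 4.51, 4.10 and 4.18 in activated libraries and at 4.82, 4.67 and 5.10 in naive libraries, and fell by 0.60 (standard error 0.16, adjusted p = 0.0080). Naive replicate 3 was the highest in both. The call of *Sec63* was lost without it (-0.48), without activated replicate 2 (-0.52) or without activated replicate 3 (-0.56), and that of *Sec62* was kept in each of these fits. The groups did not overlap in either gene.

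**Figure D3:**
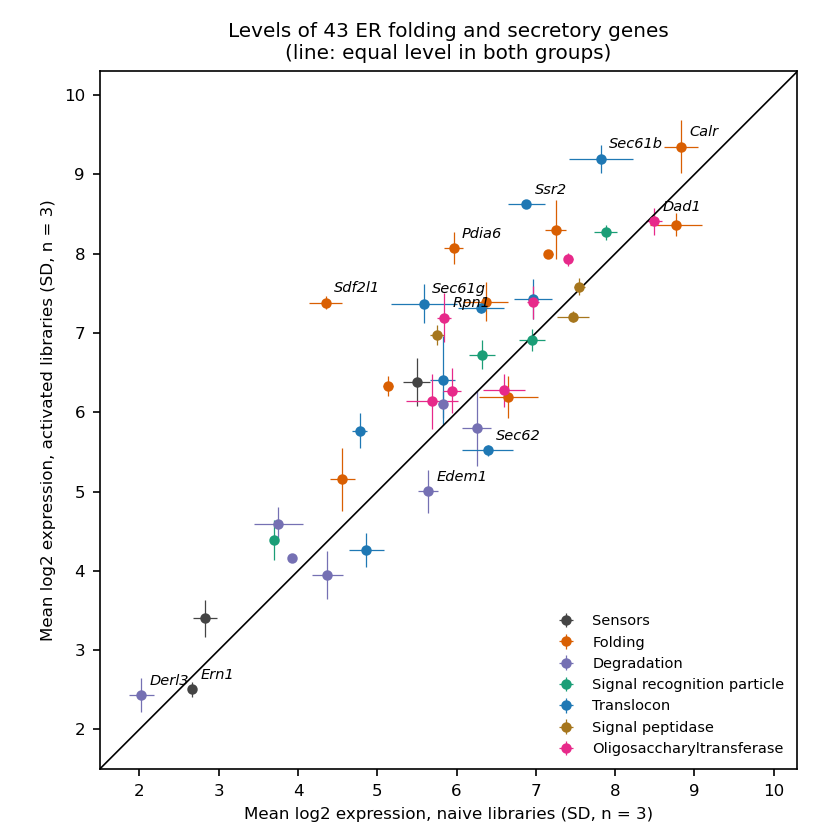
Mean log2 expression in activated libraries (vertical axis) against that in naive libraries (horizontal axis) for the 43 ER genes in the table, colored by role, with the SD of 3 libraries in each direction. Points above the line were higher in activated cells, with *Sdf2l1* at 7.38 against 4.35, and *Sec62*, at 5.52 against 6.39, lies below it.

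Signal peptidase showed 1 called gene of 3. *Spcs3*, a subunit required for cleavage, lies on the minus strand of chromosome 8 from 54520433 to 54529998. It was at 7.08, 7.01 and 6.83 in activated libraries and at 5.66, 5.76 and 5.84 in naive libraries, and rose by 1.22 (standard error 0.13, adjusted p = 2.4e-05 from limma). *Spcs1* and *Spcs2*, the accessory subunits, were at higher levels in naive cells than *Spcs3* and were not called, with log2 fold changes of 0.03 and -0.27. In activated cells the 3 subunit genes lay closer together, between 6.97 and 7.58, than in naive cells, where they lay between 5.76 and 7.55 (means of 3 libraries).

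Of the 7 oligosaccharyltransferase genes in the set, *Rpn1* was the 1 called. Subunit genes outside the set were also tested. *Tmem258* rose by 1.40, *Tusc3* by 1.22 and *Ost4* by 0.84, while *Magt1* (-0.21) and *Krtcap2* (-0.11) were not called. *Rpn1* encodes ribophorin I, a shared subunit that holds some substrates near the catalytic site, on the plus strand of chromosome 6 from 88084482 to 88105304. It was at 7.54, 6.99 and 7.04 in activated libraries and at 5.80, 5.95 and 5.78 in naive libraries, and rose by 1.35 (standard error 0.17, adjusted p = 6.9e-05 from limma). Ribophorin II, encoded by *Rpn2*, had a log2 fold change of 0.33 (adjusted p = 0.095) with overlapping groups. The shared subunit genes *Ddost* and *Dad1* had 0.42 (adjusted p = 0.022, below 1.5-fold) and -0.09 (adjusted p = 0.57). *Ostc*, found in the form of the enzyme that works at the translocon, had 0.52 (adjusted p = 0.0036 from limma, below 1.5-fold) with no overlap between the groups. The catalytic subunit genes *Stt3a*, of that same form, and *Stt3b*, of the form that works after translocation, had 0.45 and -0.32, neither called, although *Stt3a* was called without activated replicate 3 (0.59) or without naive replicate 3 (0.64) and had a log2 fold change of 0.26 without activated replicate 1.

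Differences between related genes within a library do not change when all log2 values of that library shift together, and 5 of 6 pairs planned could be compared. The difference of *Stt3a* minus *Stt3b* was 0.01, -0.11 and -0.31 on the log2 scale in activated libraries and -0.86, -1.04 and -0.82 in naive libraries. It was 0.77 higher in activated cells with no overlap (p = 0.1 and adjusted p = 0.17 over 5 pairs, exact permutation test, two-sided). With 3 libraries per group no p under 0.1 can be reached. The difference of *Calr* minus *Canx* was 2.06, 1.80 and 2.01 in activated libraries and 2.46, 2.54 and 2.38 in naive libraries, lower by 0.50 in activated cells with no overlap (exact permutation test, p = 0.1, adjusted p = 0.17). *Sec62* minus *Sec63* averaged 1.26 in activated cells and 1.53 in naive cells, with groups just apart (exact permutation test, p = 0.1, adjusted p = 0.17). The difference between groups was -0.27, and -0.21 with a pseudocount of 0.5 on linear values above the base (exact permutation test, p = 0.3). *Spcs2* minus *Spcs1* averaged -0.38 in activated cells and -0.07 in naive cells (p = 0.3, exact permutation test), and the difference between groups was -0.31, and -0.149 without naive replicate 3. *Derl1* minus *Derl2* averaged 1.94 in activated cells and 1.90 in naive cells (p = 0.8, exact permutation test).

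**Figure D4:**
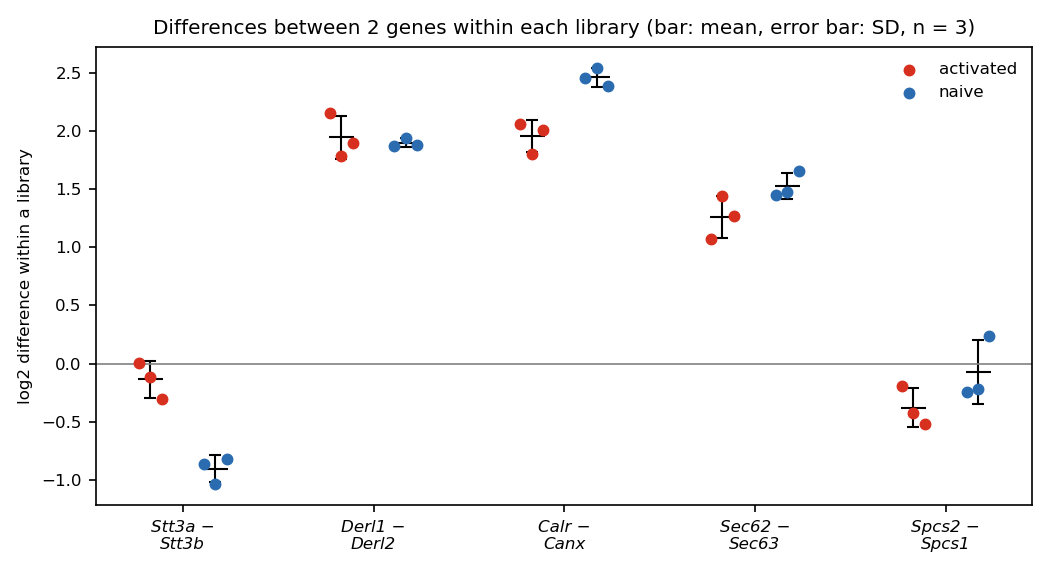
Log2 difference between 2 genes within each library (vertical axis) for 5 pairs, in activated libraries (red, left) and naive libraries (blue, right), with the mean and SD of 3 libraries. For *Stt3a* minus *Stt3b*, the activated libraries lie between -0.31 and 0.01 and the naive libraries between -1.04 and -0.82.

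Other genes of the same pathway, from lists of 140 names of which 129 had a row and 125 were tested, were called higher in 41 cases and lower in 20. That is 32.8% and 16.0%, against 31.2% and 21.6% of all genes tested. Among 28 other folding genes, 10 rose and 6 fell. *Hspa5*, which encodes BiP, the main Hsp70 chaperone of the ER, was at 8.83, 8.18 and 8.18 in activated libraries and 7.50, 7.38 and 8.09 in naive libraries and rose by 0.74 (adjusted p = 0.018 from limma). It was not called without activated replicate 1 (0.52), without naive replicate 1 (0.66) or without naive replicate 2 (0.60), nor under quantile normalization (0.24) or upper-quartile scaling (0.50). *Hsp90b1*, the ER Hsp90, rose by 0.85, but not under quantile normalization (0.35). The co-chaperone genes *Dnajb9* and *Dnajc3* fell by 2.02 and 1.00, *Dnajb9* to 3.72, 3.49 and 3.54 in activated libraries, against 5.34, 5.44 and 6.03 in naive libraries. *Mogs*, which trims the first glucose from new glycans, rose by 1.64, and the disulfide isomerase gene *Pdia5* was at 3.71, 3.35 and 3.40 in activated libraries and below the base value in every naive library.

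Of 11 other sensors and effectors, 3 rose and 1 fell. That is 27.3% and 9.09%, against 31.2% and 21.6% of all genes tested. *Atf4*, the transcription factor translated when eIF2alpha is phosphorylated, rose by 2.72, and its target *Trib3* by 1.36, at 5.37, 3.37 and 3.55 in activated libraries and 2.75, 2.85 and 2.60 in naive libraries. Activated replicate 1 held the high value of *Trib3*, and without it the log2 fold change was 0.72 and still called. *Trib3* was not called without naive replicate 3 (1.30), and with a pseudocount of 0.1 its log2 fold change was 2.17. *Atf6b*, of the same list, rose by 0.80 (adjusted p = 0.0029 from limma). *Ddit3* and *Ppp1r15a*, also of that list, had log2 fold changes of -0.11 and -0.31 and were not called. *Eif2ak3*, which encodes the sensor Perk, had a log2 fold change of -0.24 (adjusted p = 0.097 from limma). *Ppp1r15b*, a partner of the phosphatase that reverses eIF2alpha phosphorylation, fell by 0.61, but not without activated replicate 2 (-0.54), activated replicate 3 (-0.47) or naive replicate 3 (-0.50). Of 23 other degradation genes, 7 rose and 7 fell (30.4% in each direction). The ubiquitin-conjugating enzyme gene *Ube2g2* and *Nploc4*, a cofactor of the Vcp ATPase, rose by 1.40 and 1.27, and *Os9*, a lectin that delivers glycoproteins to Hrd1, and *Fam8a1*, an Hrd1 partner, fell by 1.31 and 1.26. Of 25 other translocation genes, 11 rose and 1 fell (44.0% and 4.0%). *Get4*, of the tail-anchored protein pathway, and *Emc6*, of the ER membrane complex, rose by 2.73 and 1.80, and *Tram1*, a translocon-associated membrane protein, fell by 1.47 with all activated libraries at or below 6.44 and all naive libraries at or above 7.56.

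Log2 fold change varied with the length of the genes. Over the 42 ER genes, log2 fold change and the log2 of total exon length had a Pearson correlation of -0.38, and over 10170 genes of the table it was -0.19. Genes share libraries and are not independent replicates. Of the 21 shorter genes (1108 to 3745 exon bases), 11 rose and none fell, with a median log2 fold change of 0.83. Of the 21 longer genes (3916 to 10431 bases), 6 rose and 3 fell, with a median of 0.33. Over all genes tested, of any length, 31.2% were called higher and 21.6% lower. Calls were not counted by length over the whole table. The difference of naive replicate 3 from the other naive libraries was correlated with length in the same genes, at 0.41 over the ER genes and 0.27 over the table, and so was that of activated replicate 1 from the other activated libraries, at 0.40 and 0.26. The part of length in the changes was not tested. With both of these libraries left out, 15 ER genes were called higher and 4 lower, and the median log2 fold change over the ER genes was 0.46. That is 35.7% and 9.52% of the ER genes. In the same fit 28.0% of all genes tested were called higher and 22.6% lower, with a median of 0.058.

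**Figure D5:**
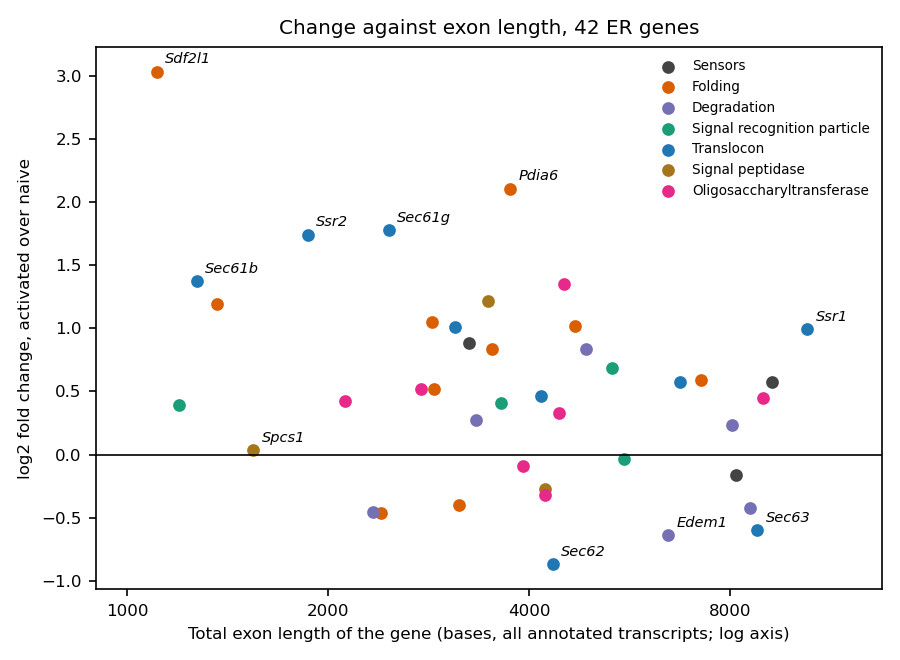
Log2 fold change (activated over naive, vertical axis) against the total exon length of each of the 42 ER genes (horizontal log axis, bases, GENCODE M21), colored by role. *Sdf2l1*, at 1108 bases, is the shortest gene and changed most, and *Ssr1*, at 10431 bases, is the longest and had a log2 fold change of 0.99.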

How the data were processed

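PolyA RNA was sequenced from 3 activated and 3 naive libraries. Per the submitters' processing notes the authors used HISAT2 2.0.5, StringTie 1.3.3b and featureCounts 1.5.0-p3 on genome build mm10. They deposited log2 values, headed FPKM in a sheet named for ComBat batch correction, from which the batches and the pseudocount cannot be read. Counts were not used here, so the depth is unknown, and batch correction can lower the spread on which p-values rest.

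The filter required 3 or more libraries with a linear value that exceeded the base value (3.97) by 1 or more, and genes that passed it were fitted with limma 3.58.1 (R 4.3.3, eBayes with trend, no covariate). Pairs of genes were compared by exact permutation tests. The members, the lists and the tests were chosen with earlier results of these data known. Values per library are given for the sensors and for up to 3 called genes per role with the largest change and groups apart, with any gene called against its role. *Sec61a1* and *Derl3* are given per library as well. Other pathway genes were named for *Hspa5*, *Hsp90b1* and *Eif2ak3* and for up to 2 with the largest change per direction. *Srp54b* and *Srp54c* were named as copies. *Tmem258*, *Tusc3*, *Ost4*, *Magt1* and *Krtcap2* were named as other oligosaccharyltransferase subunits, and *Atf6b*, *Ddit3* and *Ppp1r15a* as genes listed with *Atf4*. Positions and exon lengths come from GENCODE M21 (GRCm38). Alternatives were pseudocounts of 0.1, 0.5 and 1, no filter and a filter of 5 units, scaling by upper quartiles, by medians of ratios or by quantiles, no trend, a replicate block, other fold thresholds, each library left out, and 3 fits for the libraries that stood apart or shared values.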

Additional observations from a re-analysis of the deposited data

How the results depend on the processing

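With 3 libraries per group and no counts, small changes and genes near the base value are measured poorly. Of the 20 called ER genes, 10 (*Canx*, *Pdia6*, *Sdf2l1*, *Creld2*, *Sec61b*, *Sec61g*, *Ssr2*, *Ssr4*, *Spcs3* and *Rpn1*) were called the same way under all 21 alternatives, and no called ER gene changed sign under any of them. Of the 22 not called, 16 were called under at least 1 alternative. The alternatives include a 2-fold threshold and no fold threshold, which reread the main fit and do not change its processing. *Sec62* and *Ssr1* lost their calls only at 2-fold, and *Srp14*, *Ostc* and *Ddost* gained theirs only with no fold threshold. The number of ER genes called higher was 17, and 11 at 2-fold, with 15 to 21 when 1 library was left out. The number called lower was 3, and 9 under quantile normalization, 7 under upper-quartile scaling, 0 at 2-fold and 1 to 6 when 1 library was left out, with 6 without activated replicate 1 and 1 without activated replicate 2 or 3. At 2-fold, 26.2% of the ER genes and 18.8% of all genes tested were called higher, and 11.6% of all genes tested lower. Quantile and upper-quartile scaling shifted the median log2 fold change of all genes tested by -0.12 and -0.16, and that of the ER genes to 0.13 and 0.26, and the share of higher genes among all called genes was 59.1%, against 48.5% under upper-quartile scaling. Under quantile normalization the sign reversed for *Derl1* (-0.051), *Srp14* (-0.13), *Srp19* (-0.0042), *Spcs1* (-0.46), *Ddost* (-0.022), *Rpn2* (-0.0026) and *Srp54b* (-0.016). *Spcs1* was also at -0.092 with median-of-ratios scaling, -0.19 with upper-quartile scaling and -0.0063 without naive replicate 3 (0.098 without activated replicate 1), and *Srp54b* at -0.052 and -0.14 under those 2 scalings. *Srp9* was at 0.048 without activated replicate 1, 0.063 without naive replicate 3 (-0.083 without naive replicate 2) and 0.14 without both. *Derl1* minus *Derl2* was -0.0025 with a pseudocount of 0.5 and -0.060 without activated replicate 1 (0.122 without activated replicate 2). The cause of these reversals was not tested. Libraries of the same replicate number did not deviate together (correlations of deviations -0.01, -0.05 and -0.14). Whether the replicate numbers pair the libraries cannot be decided from this, because the batches are unknown and batch correction can remove shared deviations. With the replicate block 17 ER genes were called higher and 3 lower. The pair difference of *Stt3a* minus *Stt3b* stayed at 0.77 (exact sign-flip test, p = 0.25, the smallest p that 3 pairs allow). The pair of *Ero1l* and *Ero1lb* was not run.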

Other observations

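Of 38 tested genes for transport between the ER and the Golgi, 10 rose and 5 fell, against 31.2% and 21.6% of all genes tested, with a median log2 fold change of 0.10. *Sec13*, a coat subunit of the vesicles that leave the ER, was at 7.74, 7.65 and 7.57 in activated libraries and 6.05, 6.05 and 5.62 in naive libraries, and *Lman1*, a cargo receptor for glycoproteins, was at 5.80, 5.50 and 5.48 in activated libraries and 3.90, 3.75 and 3.92 in naive libraries. They rose by 1.74 and 1.73. The coat subunit gene *Sec24a* and *Yipf5*, a membrane protein of the early Golgi, fell by 0.91 and 0.77, and *Sec24a* by 1.50 with a pseudocount of 0.1 and 1.40 with 0.5.

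In the whole table, 13 tested genes had the letters of the first ER stress response element in their promoter window, of which 7 were called higher and 1 lower, against 31.2% and 21.6% of all genes tested, with a median log2 fold change of 0.74. Those called higher were *Canx*, *Creld2*, *Pdia6*, *Syvn1*, *Hspa5*, *Hsp90b1* and *Hnrnpa3*, an RNA-binding protein gene outside the ER. The one called lower was *Dnajc3*, a co-chaperone of BiP and inhibitor of Perk. These genes were singled out by their letters after their values were seen, and the list shares 5 tested genes with the ER genes described above. *Hspa5*, *Hsp90b1* and *Dnajc3* are among the other pathway genes described above. Of the remaining genes, *Hnrnpa3* rose by 0.74, and *Adcy3* (-0.31), *Alg12* (-0.12), *Pan2* (-0.31) and *Xlr3b* (-0.05) were not called.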
